A study of Homo sapiens with 4 samples.

Results

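Promoters that were accessible in C4-2B prostate cancer cells and had no peak in the drug-resistant line derived from them were examined one by one. A peak is an interval of the genome where more sequencing reads began than the local background would give. A C4-2B interval entered the set when it shared 0 bp with every interval of the C4-2BER list and its midpoint lay within 2000 bp of the transcription start site (TSS) of a protein-coding transcript in hg38. The members were therefore chosen by measured values, namely the presence of a C4-2B peak and the absence of a C4-2BER peak. The set held 3703 of the 23622 C4-2B promoter intervals (15.7%), against 56491 of all 149676 C4-2B intervals without overlap (37.7%). The other 19919 C4-2B promoter intervals overlapped a C4-2BER interval and are called shared, and 52788 C4-2B-only intervals lay outside promoters and are called distal.

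The study profiled open chromatin by ATAC-seq, in which a transposase cuts exposed DNA and leaves sequencing adapters at the cut. C4-2B is an androgen-responsive human prostate adenocarcinoma line of the LNCaP lineage. C4-2BER was derived from C4-2B by continuous exposure to enzalutamide, an antiandrogen, and the labels call its cells neuroendocrine-like. The labels give both lines RPMI with 10% fetal bovine serum, and the study's methods add that C4-2BER was kept in enzalutamide, so the presence of the drug and the derived state of the line cannot be told apart. Each line had 2 libraries, 4 in all. Each line is a single derivation, and the libraries of a line were merged before peaks were called, so every value below comes from 1 list per line and no difference between the lines has a replicate check or a test. An interval that is not in the C4-2BER list had too few reads there to be listed, which does not show that the site was closed.

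Most promoters of broadly used genes lie in CpG islands, stretches rich in the CG dinucleotide that are open in nearly every cell type, and are bound by factors such as SP1, NRF1, ETS proteins and NF-Y. Promoters poor in CpG, and the enhancers close to them, open in a more tissue-restricted way. In luminal prostate cells this opening involves FOXA1, a pioneer factor that reads the forkhead motif in closed chromatin, and an inverted repeat called the androgen response element, through which androgens act on genes. Enzalutamide blocks androgen signalling.

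The sequence under the summit, the position with most reads in an interval, shows what kind of DNA the members were. The first 4 below are the strongest members by the authors' −log10 q (the logarithm of the peak's adjusted p-value) whose window (60 bases either side of the summit) held a forkhead motif and no annotated untranslated region. Intervals on chromosomes 8 and Y were left out of the choice of all printed sequences. The motif was searched on both strands as TGTTTAC or TGTTTGC or TATTTAC or TATTTGC, and is in capitals. All sequences are 5′ to 3′ from hg38.
TRIM48, chr11:55263177-55263297, plus strand: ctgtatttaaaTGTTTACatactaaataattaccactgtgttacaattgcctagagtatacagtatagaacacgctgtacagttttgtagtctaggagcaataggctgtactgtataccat
GIMAP5, chr7:150736152-150736272, minus strand: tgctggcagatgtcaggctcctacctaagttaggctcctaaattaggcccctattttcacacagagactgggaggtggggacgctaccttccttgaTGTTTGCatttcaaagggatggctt
BCAS3, chr17:60889024-60889144, minus strand: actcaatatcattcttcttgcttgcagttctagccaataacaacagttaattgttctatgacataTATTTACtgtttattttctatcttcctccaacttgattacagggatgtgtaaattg
OPALIN, chr10:96352809-96352929, plus strand: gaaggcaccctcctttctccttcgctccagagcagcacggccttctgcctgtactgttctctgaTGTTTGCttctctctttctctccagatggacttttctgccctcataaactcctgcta

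The next 4 are the strongest members that held an androgen response element in the same window, chosen by the same conditions. The element was searched as its half-sites AGAACA and TGTTCT around a spacer of 3 bases, with a second base allowed at 2 positions of each half-site, and is in capitals with its spacer.
INTS3, chr1:153752185-153752305, plus strand: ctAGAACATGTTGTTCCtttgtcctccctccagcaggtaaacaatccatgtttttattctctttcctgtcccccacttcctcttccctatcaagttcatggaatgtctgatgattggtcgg
STPG3, chr9:137250214-137250334, plus strand: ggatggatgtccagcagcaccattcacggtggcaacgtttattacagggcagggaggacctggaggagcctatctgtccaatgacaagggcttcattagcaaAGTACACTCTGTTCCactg
SMOX, chr20:4171102-4171222, plus strand: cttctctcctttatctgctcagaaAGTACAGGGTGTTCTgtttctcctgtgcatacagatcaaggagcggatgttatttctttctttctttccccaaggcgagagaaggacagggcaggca
CCDC6, chr10:59905164-59905284, plus strand: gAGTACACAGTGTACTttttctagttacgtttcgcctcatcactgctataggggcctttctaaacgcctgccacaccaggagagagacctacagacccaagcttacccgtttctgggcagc

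The last 4 contrast the CpG content of members with that of shared promoters, with each CG in capitals. NAGLU and C2 are the strongest members not printed above, and ZFYVE1 and IQCB1 the strongest shared promoter intervals, within limits set on the window. Each window had to hold no annotated untranslated region and at least 1 CpG, so a window without a CpG could not be shown. The 2 member windows held 4 and 1 CpGs, and the 2 shared windows held 11 and 13.
NAGLU, chr17:42541383-42541503, plus strand: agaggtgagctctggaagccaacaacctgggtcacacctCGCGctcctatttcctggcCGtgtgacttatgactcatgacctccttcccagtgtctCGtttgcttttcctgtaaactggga
C2, chr6:31919850-31919970, plus strand: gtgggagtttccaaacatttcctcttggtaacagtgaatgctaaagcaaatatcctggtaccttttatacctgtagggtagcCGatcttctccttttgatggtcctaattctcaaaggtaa
ZFYVE1, chr14:73027144-73027264, plus strand: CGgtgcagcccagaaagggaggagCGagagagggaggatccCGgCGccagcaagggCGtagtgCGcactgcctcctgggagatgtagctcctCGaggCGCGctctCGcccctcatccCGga
IQCB1, chr3:121835074-121835194, plus strand: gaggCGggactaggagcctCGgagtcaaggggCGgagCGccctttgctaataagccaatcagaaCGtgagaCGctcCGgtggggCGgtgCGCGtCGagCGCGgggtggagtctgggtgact

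The members were weak peaks for promoters, which follows in part from the way they were chosen. The median member held 28 reads at its summit (quartiles 17 and 45), with a range of 8 to 167, whereas the median shared promoter interval held 94 reads (quartiles 49 and 140). The authors' fold enrichment, the ratio of summit reads to local background, had a median of 3.84 in members and 8.45 in shared promoters. Members were also narrow, with a median width of 268 bp against 814 bp, and 6.54% had more than 1 summit against 51.4% of shared promoters. Of the members 37.8%, and of the shared promoters 87.7%, had a −log10 q of 10 or more. Their local background, at a median of 5.48 reads, lay between that of shared promoters (9.98) and that of C4-2B-only distal intervals (2.24). Promoter intervals found in C4-2BER only were also weak and narrow, with medians of 24 reads, a fold of 4.03 and a width of 285 bp. Of these, 15.4% had more than 1 summit and 32.2% a −log10 q of 10 or more, so such traits were not particular to members.

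The lowest local background was 1.87 reads in C4-2BER and 2.24 in C4-2B, and their ratio stood for the difference in depth. By that ratio equal accessibility would have given 0.836 C4-2BER reads for each C4-2B read. This holds only if both lines had the same share of reads in peaks, which was not checked. On that scale the median member would have held 23.4 reads in C4-2BER, where 12 would have been enough for a listing at the same background. The expected reads reached the number needed in 3639 members (98.3%), were at least 2 times that number in 1089 (29.4%) and at least 5 times in 44 (1.19%). These margins are a description, because the reads scaled here are the same C4-2B reads that put each member in its list under a nearly equal limit. Most members stood close above the limit, with a median of 1.67 times the number needed (quartiles 1.36 and 2.09). The margin was widest, at 8.71 times, for 1 interval, and narrowest at 0.836 times.

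The members spread widely in their distance from open chromatin of the resistant line. The nearest C4-2BER interval was at a median gap of 1299 bp (quartiles 453 and 5853). It lay within 100 bp of 177 members (4.78%), 100 to 500 bp away from 22.2%, 500 to 1000 bp from 16.3%, 1000 to 10000 bp from 42.1%, and more than 10000 bp from 541 members (14.6%). The gaps to the nearest C4-2B interval shared by both lines were of the same order, with a median of 1847 bp.

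**Figure D1:**
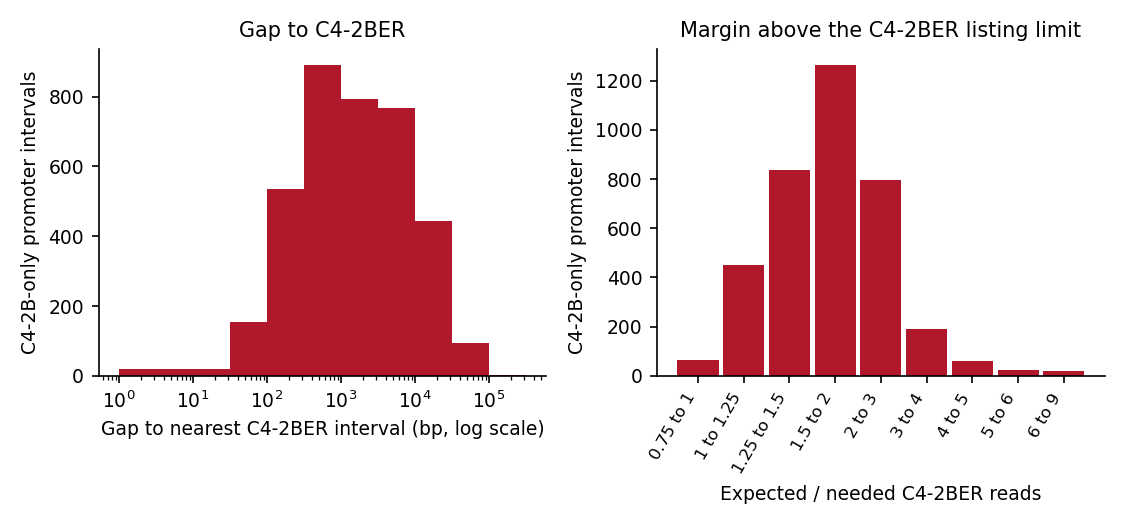
Left, number of C4-2B-only promoter intervals by the gap in bp to the nearest C4-2BER interval, on a log axis. Right, number of intervals by the C4-2BER reads expected at equal accessibility divided by the reads needed for a listing; 3639 of 3703 reached 1, and the bin of 1.5 to 2 held the most, 1264.

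Members at the edges of the rule are given as a description. The members farthest from a TSS were at MCF2L and AHNAK2, both with the midpoint at exactly 2000 bp and with 28 and 94 reads, followed by EIF3I and ANKRD24 at 1998 bp and CACNB3 at 1996 bp. The nearest C4-2B-only intervals just outside were at NADK2 and RXRA, at 2000.5 bp with 59 and 53 reads, C3orf18 at 1 bp beyond the limit, HPD at 2003 bp and SEMA3C at 2004 bp. The members closest to a C4-2BER interval were at BEND7 and FRMD4A with gaps of 3 bp and 13 and 15 reads, KRTAP10-11 with 7 bp, GNAI2 with 8 bp and SMOC2 with 9 bp. The intervals just excluded overlapped a C4-2BER interval by 3 bp at PXDN, 8 bp at ADNP, 9 bp at PYCR1 and 15 bp at ZNF274, with 27 to 40 reads.

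Members lay beside TSSs more often than over them. The midpoint was within 500 bp of the nearest TSS in 30.5% of members (95% Wilson interval 29 to 32) and in 75% of shared promoters (74.4 to 75.6). The median absolute distance was 892 bp (quartiles 386 and 1386) against 154 bp. An interval covered a protein-coding TSS in 558 members (15.1%), against 69.8% of shared promoters. By distance, 11% of members had the midpoint within 100 bp, 19.4% between 100 and 500 bp, 25% between 500 and 1000 bp and 44.5% between 1000 and 2000 bp, where shared promoters had 39.2%, 35.8%, 12.4% and 12.5%. The Wilson intervals here and below cover counting error only.

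**Figure D2:**
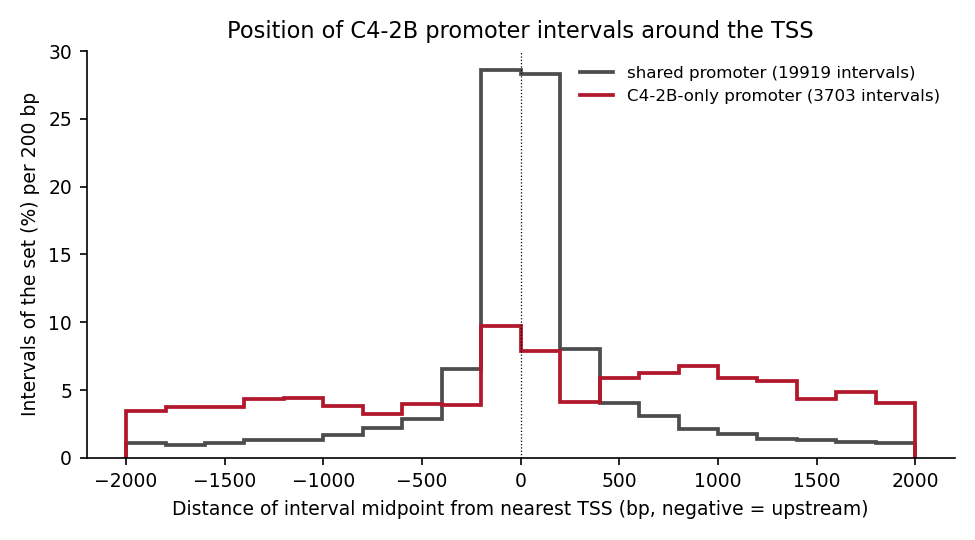
Share of intervals in each set (%) per 200 bp of distance from the nearest TSS, with upstream distances negative, for 3703 members and 19919 shared promoter intervals. Shared intervals peaked at the TSS with 28.6% and 28.3% in the flanking bins, whereas members reached 9.69% and 7.86% there and 6.75% at 800 to 1000 bp downstream.

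The side of the TSS differed little, with 44.3% of members and 47.7% of shared promoters upstream. The annotation under the summit differed more. An intron of a protein-coding transcript held 2374 members (64.1%), against 35.2% of shared promoters, and a coding exon held 8.24% against 4.86%. Untranslated 5′ exons held 7.21% of members and 20.5% of shared promoters, and sequence between genes held 13.4% and 28.2%. Untranslated 3′ exons held 1.92% of members. The TSS nearest to a member was that of the canonical transcript, the main transcript Ensembl assigns to a gene, in 27.2%, against 39.1% of shared promoters, and 54.5% of members lay within 2000 bp of any canonical TSS against 81.4%. The remaining members were promoter intervals only through an alternative TSS.

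Along the genome, the share of promoter intervals that were C4-2B-only ranged from 12.4% on chromosome 13 (47 of 378, 9.48 to 16.1) to 18.3% on chromosome 11 (266 of 1457, 16.4 to 20.3). Chromosome X, at 12.8% (89 of 697), was the next lowest, and chromosome 7, at 17.9% (199 of 1113), the next highest.

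Members were poor in CpG. The summit lay in CpG-rich sequence, defined as a GC content of at least 50% and an observed over expected CpG ratio of at least 0.6 in the surrounding 500 bp, in 320 members (8.64%, 7.78 to 9.59) and in 65.3% of shared promoters. The median CpG ratio was 0.253 in members, 0.757 in shared promoters and 0.180 in C4-2B-only distal intervals. The promoter intervals found in C4-2BER only, 3093 in number, had a median ratio of 0.544. The GC content had medians of 50.4% in members, 63.2% in shared promoters and 43.4% in distal intervals.

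Read from the side of the promoters, 2.40% of the 13335 CpG-rich C4-2B promoter intervals (2.15 to 2.67) and 32.9% of the 10287 others (32 to 33.8) had no overlap in C4-2BER. Because weak peaks were more often C4-2B-only and CpG-poor peaks were weaker, the shares were also taken within bins of summit reads. Among intervals of 8 to 19 reads, 13.7% of the CpG-rich and 61.7% of the others were C4-2B-only. Among intervals of 40 to 79 reads the shares were 5.07% and 26.5%, and from 80 reads upward 0.128% (12 of 9364) and 7.30% (169 of 2315). The gap between the classes was present in every bin of reads, while both shares fell with reads.

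**Figure D3:**
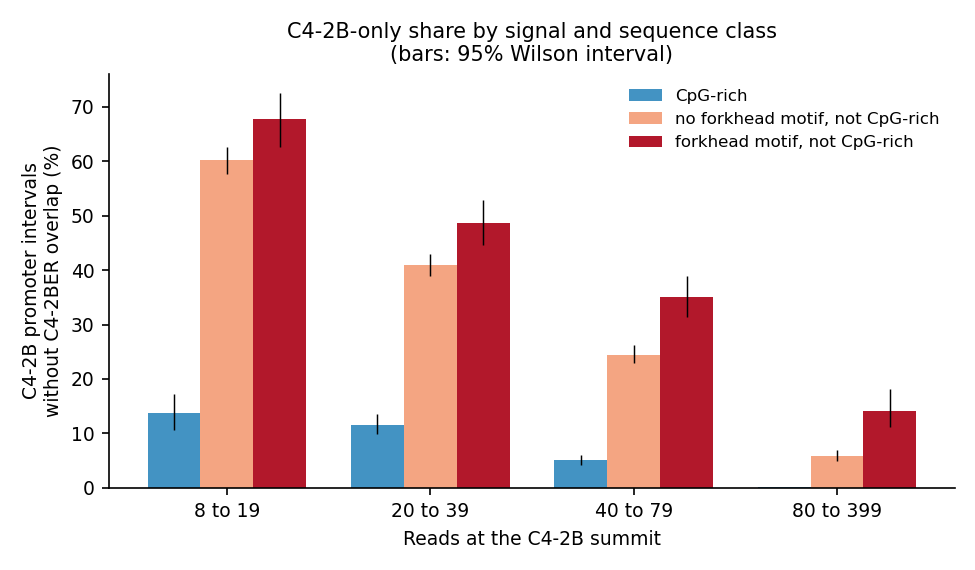
Share of C4-2B promoter intervals without C4-2BER overlap (%) by reads at the C4-2B summit, for CpG-rich sequence and for other sequence with or without a forkhead motif, with 95% Wilson intervals. In each bin the share was highest with a forkhead motif, from 67.8% at 8 to 19 reads to 14.2% at 80 reads and more, and lowest in CpG-rich sequence.

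The forkhead motif was present within 100 bp of the summit in 789 members (21.3%, 20.0 to 22.7). It was present in 8% of shared promoters (7.63 to 8.39), 10.1% of all C4-2B promoter intervals, 33.2% of C4-2B-only distal intervals and 7.63% of C4-2BER-only promoters. Part of this contrast went with base composition. Outside CpG-rich sequence the motif was in 23% of members (21.6 to 24.4) and 16.4% of shared promoters (15.5 to 17.2). Within 500 bp of a TSS it was in 16.7% of members against 5.77%, and from 500 to 2000 bp in 23.3% against 14.7%. Among intervals outside CpG-rich sequence, 40.8% of those with the motif (777 of 1906) and 31.1% of those without it (2606 of 8381) were C4-2B-only. At matched reads these shares were 67.8% and 60.2% for 8 to 19 reads, 48.7% and 40.9% for 20 to 39, 35% and 24.5% for 40 to 79, and 14.2% and 5.88% from 80 reads.

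An androgen response element was rarer. Its strict form was found in 14 members (0.378%, 0.225 to 0.634), 4 shared promoters (0.0201%), 0.638% of distal C4-2B-only intervals and 0 of 3093 C4-2BER-only promoters, where a count of 0 allows a share of up to 0.0970%. It was found in 0.0762% of all C4-2B promoter intervals. With up to 2 mismatches in the 12 letters of both half-sites, a second form chosen after the strict counts were seen that does not take in every strict match, it was found in 104 members (2.81%, 2.32 to 3.39), 0.587% of shared promoters, 4.60% of distal intervals and 0.388% of C4-2BER-only promoters. Outside CpG-rich sequence the second form was in 3.07% of members (2.54 to 3.71) and 1.32% of shared promoters (1.07 to 1.62). None of the 320 CpG-rich members held either form, which allows up to 0.938%.

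Other motifs divided along the same line. GATA, searched as AGATAA, was in 9.94% of members and 3.42% of shared promoters, AP-1 as TGANTCA in 9.75% and 4.08%, and the TATA box as TATAAA in 7.91% and 3.44%. The E-box CAGCTG differed least, at 16.2% and 13%. Motifs of CpG-island promoters were scarce in members. The GC box GGGCGG, the SP1 site, was in 12.3% against 53.5%, the ETS motif CCGGAAG in 1.70% against 10.5%, the CCAAT box AGCCAAT in 2.16% against 6.78%, and the NRF1 motif in 1 member (0.0270%) against 2.70%. The CTCF motif was in 4.08% against 9.03%. The HOXB13 motif was searched only as CTCGTAAA, which holds a CG, and this form was too rare to compare, at 0.162% and 0.115%. Outside CpG-rich sequence AP-1 was in 10.5% of members (9.48 to 11.5) and 8.57% of shared promoters (7.94 to 9.26), a smaller contrast than over all promoters, and GATA was in 10.6% (9.62 to 11.7) and 7.44% (6.85 to 8.09). The contrasts also shrank there for the TATA box, at 8.45% (7.56 to 9.44) and 6.97% (6.39 to 7.59), and for the GC box, at 8.9% (7.98 to 9.9) and 20.1% (19.1 to 21). So did those for the ETS motif, at 1.51% and 3.14%, and the CCAAT box, at 2.25% and 4.72%. The searched letters of the GC box and the ETS motif hold a CG themselves. For the CTCF motif the contrast was wider there, at 4.17% (3.54 to 4.89) and 11.7% (11 to 12.5). A match gives letters only and does not show that a factor was bound.

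**Figure D4:**
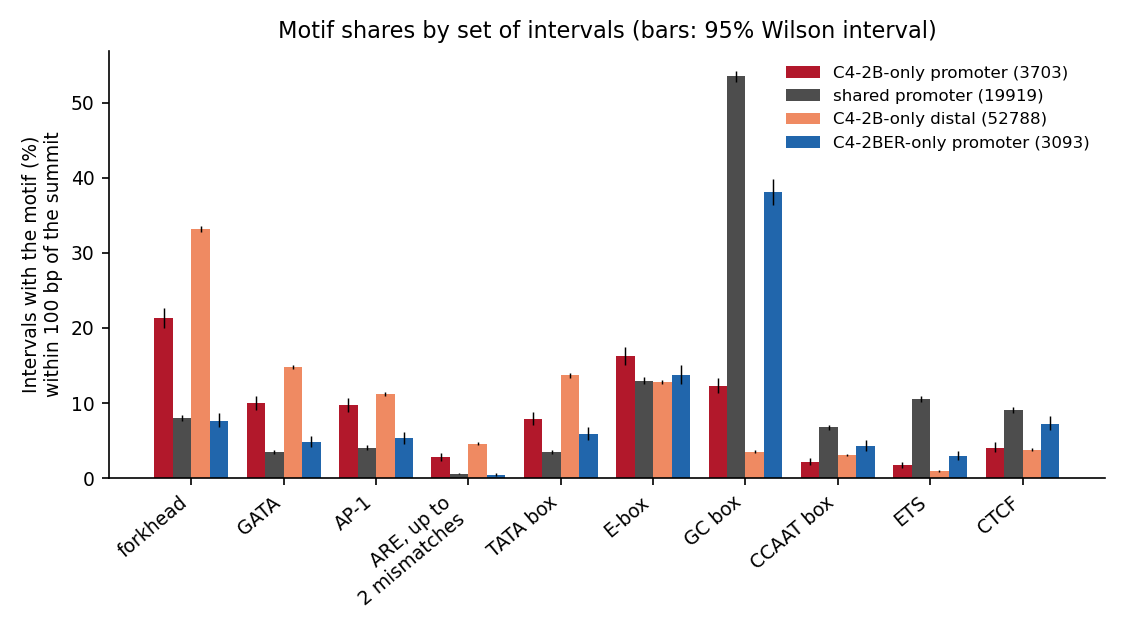
Share of intervals (%) with each motif within 100 bp of the summit, with 95% Wilson intervals, for members, shared promoters, C4-2B-only distal intervals and C4-2BER-only promoters. For the forkhead motif members stood at 21.3%, between distal intervals at 33.2% and shared promoters at 8%, and for the GC box at 12.3%, between 3.54% and 53.5%.

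Members lay within 2000 bp of a TSS of 3300 of the 19689 protein-coding genes (16.8%). Of these, 2787 also had a C4-2BER interval within 2000 bp of one of their TSSs, and 513 genes (2.61% of all) had none. A single gene was in reach of 3490 members, 2 genes of 199 and 3 or more of 14. Conversely, 2777 genes had 1 member, 433 had 2 and 90 had 3 or more. The number of TSSs bears on these counts. A member was present at 10.1% of genes with 1 TSS, 13.7% with 2 to 3, 19.4% with 4 to 6, 25.7% with 7 to 9 and 33.6% with 10 or more. The share of genes with a member and no C4-2BER promoter interval ran the other way, from 3.63% to 0.665%. The 4 genes with 5 members each all had at least 10 TSSs. They were ARID1B, a chromatin remodeller subunit, LINGO1, a neuronal membrane protein, PPFIBP2, a liprin, and TNS3, a focal adhesion protein, and they were named after their values were seen. At TNS3 the members held 10, 23, 27, 39 and 61 reads, and the strongest was 26091 bp from the nearest C4-2BER interval.

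The 20 members of highest −log10 q held 76 to 141 reads, stood 709 to 46461 bp from the nearest C4-2BER interval and had 3.86 to 8.67 times the reads needed. A forkhead motif was in 10 of them, 13 had the summit in an intron, 5 covered a TSS and 4 had a canonical TSS as the nearest one. The highest was at TRIM48, which encodes a tripartite-motif protein, on chromosome 11 from 55262966 to 55263517, 1087 bp downstream of the TSS in an intron. It held 133 reads at a 19.4-fold enrichment and a −log10 q of 123, and 111 reads would have been expected in C4-2BER where 13 were needed. The second was at LECT2, a chemotactic protein secreted by the liver, with 125 reads at 20.1-fold, 5872 bp from a C4-2BER interval. The third was at ZNF410, a zinc finger transcription factor, with 101 reads at 16.9-fold in a coding exon. TRIM48 and LECT2 had no C4-2BER promoter interval, whereas ZNF410 had one at another position.

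Several of the others lay at genes known from other tissues. GIMAP5, a GTPase of lymphocytes, had 96 reads at −1111 bp from its TSS. LAT2, a signalling adaptor of immune cells, had 97 reads over an alternative TSS. MC5R, a melanocortin receptor, had 108 reads. OPALIN, a membrane protein of oligodendrocytes, had 91 reads 513 bp downstream. EDN3, the peptide endothelin 3, had 83 reads at −392 bp and no C4-2BER promoter interval. C2, a complement protease, had 113 reads over an alternative TSS. TTLL6, a tubulin-modifying enzyme, had 135 reads between genes.

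Genes of general cell function were also among the 20. NAGLU, a lysosomal enzyme, had the most reads of the 20, 141, over a background of 14.9 reads, and a fold of 8.95. FANCI, of the Fanconi anaemia DNA repair pathway, had 80 reads in an intron 19018 bp from any C4-2BER interval. SLC7A2, a transporter of cationic amino acids, had 76 reads and was the only one of the 20 with the strict androgen response element. TRIM48 held the second form. RNF157, CPVL, BCAS3, ZNF385B, EPHB6 and PRRC1 had 97, 84, 84, 78, 120 and 134 reads.

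The 14 members with the strict androgen response element held 11 to 115 reads (median 40.5) and stood 221 to 14755 bp from a C4-2BER interval. A forkhead motif accompanied the element in 3 of them, at INTS3, GLUL and HPGD. After SLC7A2, the strongest was at CIAO3, a protein of iron-sulfur cluster assembly, with 115 reads over an alternative TSS. INTS3, an Integrator subunit, followed with 73 reads, and STPG3 with 91. SMOX, spermine oxidase, had 51 reads at −518 bp, and CCDC6 had 71. TMEM229B had 30 reads, GLUL, glutamine synthetase, had 64, HPGD, which inactivates prostaglandins, had 24, and RRAGD, a GTPase of nutrient sensing, had 27. The other 4 were named after their values were seen. SLC22A2 and SLC22A14, organic cation transporter family genes, had 19 and 14 reads, PDZRN4 had 23 and KRT6A had 11. Of the 14 genes, STPG3, SLC22A2, SLC22A14 and KRT6A had no C4-2BER promoter interval.

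Among the 513 genes left without a C4-2BER promoter interval, members differed from the rest. The 569 members in reach of such a gene held fewer reads than the other 3134 (median 19 against 31) over a lower background (2.58 against 6.73). They stood farther from C4-2BER intervals, at a median gap of 7648 bp against 980 bp, as the choice of genes required. They were nearer to a TSS, with 43.8% within 500 bp (39.7 to 47.9) against 28.1% (26.5 to 29.7). The forkhead motif was about as frequent, at 19.5% (16.5 to 23) and 21.6% (20.2 to 23.1), as was the second form of the androgen response element, at 3.69% (2.43 to 5.58) and 2.65% (2.14 to 3.27). After TRIM48, LECT2 and EDN3, the highest −log10 q values among these genes were at HYAL4 (85 reads), a hyaluronidase family gene, MMP12 (58), a macrophage metalloelastase, FAM166B (77), ZP1 (87), an egg coat protein, OR10H1 (63), an olfactory receptor, CCDC198 (72), IL2RB (69), a chain of the interleukin 2 receptor, and SOX6 (55), a transcription factor. Those not covered by the lists and families below were named after their values were seen. The SOX6 interval lay 59799 bp from any C4-2BER interval.

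Gene lists were then read against the 16.8% of all genes, and against the 20.8% of genes with any C4-2B promoter interval, since a gene without one could have no member. Of 107 androgen-regulated genes, all of which had a C4-2B promoter interval, 36 had a member (33.6%, 25.4 to 43.0). All genes with the same numbers of TSSs had 19.5%. Only 1 of the 36, TRPM8, a cold-sensing channel of prostate epithelium named after its value was seen, had no C4-2BER promoter interval. The highest −log10 q was at SORD, sorbitol dehydrogenase, with 80 reads 938 bp from a C4-2BER interval. IQGAP2, a scaffold protein, had 77 reads, and PTPN21, a tyrosine phosphatase, had 43. IDI1, an enzyme of cholesterol synthesis, had 96, and PGM3, of hexosamine synthesis, had 57 in a coding exon. At FKBP5, a chaperone induced by androgens and named after its value was seen, a member of 113 reads lay at −530 bp and 500 bp from a C4-2BER interval.

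Luminal genes had a member in 11 of 35 (31.4%, 18.6 to 48.0), where all genes had 16.8% and genes with the same numbers of TSSs 16.3%. Of the 34 luminal genes with a C4-2B promoter interval the share was 32.4% (19.1 to 49.2), against 20.8% of all such genes. They included AGR2, a secretory protein (32 reads), ESRP1, an epithelial splicing factor (81), GRHL2, an epithelial transcription factor (76), and GATA2 (101), GATA3 (30) and HOXB13 (62), transcription factors of the prostate epithelium. Their gaps ran from 53 bp at HOXB13 to 3427 bp at GATA2. Of 9 luminal marker genes, all had promoter intervals in both lines, and 3, HOXB13 among them, had a member as well. The 6 neuroendocrine marker genes likewise had promoter intervals in both lines, so these lists did not separate the labelled cell types by the presence of a promoter peak.

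Neuroendocrine genes had a member in 7 of 36 (19.4%, 9.75 to 35.0), near the share of all genes, and none of the 36 lacked a C4-2BER promoter interval. They were SCN3A, a sodium channel (27 reads), MYT1, a neural transcription factor (29), STMN2 (17), CHGA, chromogranin A (29), PROX1 (31), CELF3 (15) and MYCN (15), the last named after its value was seen. Steroid and lipid metabolism genes had a member in 15 of 60 (25%, 15.8 to 37.2). Among these, SREBF1, the regulator of lipid synthesis, had 110 reads and ACLY, which supplies acetyl-CoA, had 78. CPT1A, of mitochondrial fatty acid import, had 72, UGT2B10, a UDP-glucuronosyltransferase, had 34, and HSD17B2, which oxidises steroids, had 30. UGT2B10 and HSD17B2 had no C4-2BER promoter interval, and the UGT2B10 member was 48222 bp from the nearest C4-2BER interval of any kind.

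Complement and coagulation genes had a member in 11 of 56 (19.6%), which was 39.3% (23.6 to 57.6) of the 28 with any C4-2B promoter interval. After C2, the highest were F13A1, a chain of factor XIII (71 reads), C4BPB (44), F5 (26), KNG1, kininogen (21), and PROC, protein C (21). Antigen presentation and interferon genes had a member in 11 of 58 (19.0%), among them IFI44L (58 reads, 8749 bp from a C4-2BER interval) and ISG15 (100 reads, 169 bp). Basal and squamous genes had a member in 8 of 30 (26.7%, 14.2 to 44.4). Only 19 of the 30 had a C4-2B promoter interval and 16 a C4-2BER one. A member without a C4-2BER promoter interval was found at 4 genes (13.3%, 5.31 to 29.7, against 2.61% of all genes). These 4 were TP63, the basal cell transcription factor, with 24 reads, KRT5 with 25, SPRR1A with 15 and KRT6A with 11. Mesenchymal genes had a member in 8 of 30 (26.7%, 14.2 to 44.4), with MMP2 (40 reads) and TAGLN (48) the highest. Housekeeping genes had one in 6 of 20 (30.0%, 14.5 to 51.9), with 79 reads at GAPDH and 37 at ALAS1, and each of the 20 had a C4-2BER promoter interval. The counting interval of the housekeeping share held those of the androgen-regulated and luminal lists. It rests on 20 genes and is too wide to tell the lists apart. All genes with the same numbers of TSSs had 22.1% for the housekeeping list, 19.5% for the androgen-regulated and 16.3% for the luminal list.

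Gene families spread more widely than the lists. The C2H2 zinc finger genes, mostly repressors of transposable elements, had few members, with 37 of 541 (6.84%, 5.00 to 9.28), although 497 of them had a C4-2B promoter interval. Histone genes had 11 of 82 (13.4%), and all 11 kept a C4-2BER promoter interval. Solute carriers, the membrane transporters of small molecules, had 86 of 385 (22.3%, 18.5 to 26.8). Of these genes 19 had no C4-2BER promoter interval (4.94% of 385, 3.18 to 7.58, against 2.61% of all genes). After SLC7A2 the highest were SLC43A1 with 147 reads, SLC29A2 with 112 and SLC25A20 with 76. Sodium and calcium channel genes had 14 of 40 (35%, 22.1 to 50.5), led by CACNG4 with 68 reads and CACNB1 with 62, where all genes with the same numbers of TSSs had 19.5%. Potassium channel genes had 24 of 96 (25%, 17.4 to 34.5), led by KCNK9 with 60 reads and KCNMA1 with 34.

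In some families few genes had any C4-2B promoter interval, and the members are then also given as a share of the genes that had one. Olfactory receptor genes had a member in 18 of 391 (4.60%, 2.93 to 7.16). That was 46.2% (31.6 to 61.4) of the 39 with any C4-2B promoter interval. Of the 18, 17 had no C4-2BER promoter interval, in a family where only 24 of the 391 genes had one. After OR10H1 the highest were OR51A2 with 43 reads, OR4N2 and OR8S1 with 27 each, and OR51A4 with 25. OR51A2 and OR51A4 are close paralogs, and reads assigned to either are less certain. Keratin-associated protein genes had 13 of 94 (13.8%), 52.0% of the 25 with an interval. Of these 13, 10 had no C4-2BER promoter interval, and only 18 of the 94 had one. KRTAP20-4 had 31 reads and KRTAP9-6 had 22. Keratin genes had 8 of 55 (14.5%), of which 6 had no C4-2BER promoter interval, and 15 of the 55 had one. KRT7, a keratin of simple epithelia, had the most reads, 52. In each of these families most genes had no C4-2BER promoter interval, so such counts do not by themselves show loss.

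Cytochrome P450 genes had a member in 8 of 56 (14.3%), 22.9% of the 35 with an interval, and cancer-testis genes in 5 of 116 (4.31%), 31.2% (14.2 to 55.6) of the 16 with one. C-type lectin and Siglec genes had a member in 8 of 44 (18.2%), 38.1% (20.8 to 59.1) of the 21 with an interval, and 6 of these genes (13.6% of 44, 6.40 to 26.7) had no C4-2BER promoter interval. The leukocyte receptor genes named LILR, KIR and FCR had 5 of 33 (15.2%, 6.65 to 30.9, against 16.8% of all genes). Of these 5 genes, 4 (12.1% of 33, 4.82 to 27.3, against 2.61% of all genes) had no C4-2BER promoter interval. KIR3DL2 was the highest at 48 reads, 30030 bp from a C4-2BER interval. Interleukin and interleukin receptor genes had 19 of 85 (22.4%, 14.8 to 32.3), 31.1% (20.9 to 43.6) of the 61 with an interval, and 7 of these genes (8.24%, 4.05 to 16.0) had no C4-2BER promoter interval, including IL2RB and IL22RA2, the decoy receptor of interleukin 22, with 51 reads. ADAM and ADAMTS protease genes had 12 of 44 (27.3%), and 5 of these genes (11.4%, 4.95 to 24.0) had no C4-2BER promoter interval. ADAMTS13, which cleaves von Willebrand factor, was at 45 reads and ADAMTS18 at 37. A C4-2BER promoter interval was present at 18 of the 44 C-type lectin and Siglec genes and 5 of the 33 leukocyte receptor genes. It was present at 55 of the 85 interleukin and interleukin receptor genes and 34 of the 44 ADAM and ADAMTS genes. In the lectin and leukocyte receptor families most genes had none, so such counts do not by themselves show loss there. Forkhead genes had 11 of 52 (21.2%, 12.2 to 34.0), led by FOXN3 with 81 reads, FOXO3 with 105 and FOXS1 with 49, all 3 with a C4-2BER promoter interval elsewhere.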

How the data were processed

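ATAC-seq was measured in 2 libraries of C4-2B and 2 of C4-2BER. According to the study's methods and the submitters' processing notes, reads were checked with FastQC, aligned to hg38 with Bowtie2, cleared of duplicates with Picard, filtered on mapping quality, merged per line and passed to MACS2, whose version is not given in the sources used here. Reads were extended to 200 bp, and the shift is printed as 100 without a minus sign, so summit positions depend on a sign that was not checked. Each deposited row is a summit with its interval. In the authors' fold enrichment, a ratio, both summit reads and local background are raised by 1. The peak caller also gave the deposited −log10 p, a Poisson p-value, and the deposited score −log10 q, whose q-value corrects that p for multiple testing. The remaining column used, of another kind, is the deposited summit offset in bp.

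Rows were reduced to 1 per interval, with the summit of highest −log10 p. Whole reads and background were recovered from fold and p-value for 100% of summits, to within 0.000259 in −log10 p, by a step tested on simulated data. Listed summits held at least 8 (C4-2B) and 7 (C4-2BER) reads. The background floors of 2.24 and 1.87 reads gave the depth ratio, 1.20, and the total depth was not used. The reads needed in C4-2BER were the fewest that reached the lowest listed −log10 p there, 2.97, at the member's background scaled by depth. All intervals ended inside the hg38 chromosome lengths, and TSSs came from GENCODE release 44 (89054 protein-coding transcripts). A gene counted as having a member when the midpoint lay within 2000 bp of any of its TSSs, and as having a C4-2BER or C4-2B promoter interval when an interval overlapped that window. Families were matched by gene symbol. The exon class under a summit was taken in the order 5′ untranslated, coding, 3′ untranslated, intron, other transcript. The 12 motifs were searched on both strands, the NRF1 and CTCF motifs as their usual consensus, and overlapping motifs were counted each. Python 3.11.15, pandas 2.3.3 and scipy 1.17.1 were used.

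The members, gene lists, families and motifs were chosen with earlier results of these data known. Genes were named by rule: the 20 members of highest −log10 q, up to 6 genes of a list or family by −log10 q, up to 10 members with an androgen response element, the 5 intervals on either side of each threshold, and the marker genes. Some genes that the rule names are not reported here. No test between lines was possible with 1 list per line, and shares carry Wilson 95% intervals. Besides the main settings 11 others were tried, and 1 more was chosen after seeing the data.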

Additional observations from a re-analysis of the deposited data

How the results depend on the processing

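No paired analysis was possible because each line has 1 list, called on pooled libraries, and no column carries a replicate. Counts and shares moved with the strength required of a peak and with what was counted as shared and as a promoter. The 3703 members became 1398 when C4-2B intervals needed a −log10 q of at least 10, 6055 when only an overlap of 50% of both intervals counted as shared, 2055 with a promoter window of 1000 bp, and 2019 with canonical TSSs only. The other 5 settings gave 2703 to 3713. The 513 genes without a C4-2BER promoter interval became 188 at a −log10 q of at least 10, and 399 to 554 under the other 8 settings.

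The share within 500 bp of a TSS, 30.5%, was 27.6% at a −log10 q of at least 10, 32.3% with both lists at that threshold, 40.6% with 50% overlap, 54.9% with the window of 1000 bp and 17.4% with canonical TSSs. The CpG-rich share, 8.64%, was 6.94%, 11.9%, 23.9%, 11.8% and 13.2% under the same 5 settings and 5.29% when a C4-2BER interval up to 500 bp away sufficed for sharing. The forkhead share, 21.3%, was 27.4%, 23.9%, 17.3%, 19.2% and 18.2% under those 5, 23.3% when one up to 500 bp away sufficed, 23.4% at a −log10 q of at least 5, 34.2% with a motif window of 250 bp and 23% outside CpG-rich sequence. The androgen response element share, 0.378%, was 0.715% at a −log10 q of at least 10 and 2.81% with up to 2 mismatches, and lower, at 0.231%, with 50% overlap and 0.292% with the window of 1000 bp. In shared promoters the forkhead share stayed between 6% and 8.38% and the CpG-rich share between 63.1% and 74.8% under the 9 settings that redefine the set. Scaling C4-2B to the C4-2BER depth left 3673 members, with every share within its counting interval. The cause of these shifts was not tested. Both lists hold only summits above a limit of the peak caller, so sites below it in either line cannot be compared.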
